A study of Mus musculus with 69 samples.

Results

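The genes described here encode complement components that the liver makes, and they were chosen as a list of 9 names: the lectin pathway proteases Masp1 and Masp2, the central component C3, the factors Cfb and Cfi, and the terminal components C6, C8a, C8b and C9. Of the 9, 8 had a probe in the array's annotation, with 13 probes in all, out of 16593 named genes on the array. All 13 probes passed the filter on weak signal. C3 had no probe under its name and was not analysed here. The livers came from 69 C57BL6/J mice aged 25 months, with 1 array for each mouse. Rapa females (n = 21) and the Rapa males had eaten a diet with 14 ppm of encapsulated rapamycin, which inhibits the kinase mTOR, for 21 months from the age of 4 months. Control females (n = 16) and control males (n = 19) were fed the same diet with the capsule polymer, Eudragit, alone. The sample titles divide the Rapa males into Rapa-2 (n = 6) and Rapa-1 (n = 7). That division was itself made by the study on the expression of these arrays, so p-values that involve Rapa-2 or Rapa-1 males are descriptive and no independent evidence of an effect of rapamycin. Each mouse is 1 replicate.

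Complement is a cascade of plasma proteins, most of them secreted by hepatocytes, that marks and lyses microbes. In the lectin pathway, proteases of the MASP family are activated on sugar-binding proteins and cleave the early components, and in the alternative pathway factor B forms the C3-cleaving convertase, which factor I helps to shut down. The terminal components then assemble into a pore in the target membrane. In mice, the lytic activity of serum is known to be higher in males than in females.

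The Rapa-2 arrays stood apart from the other males in their median bead signal before any normalization. The median bead signal of an array was 84.0 to 96.8 in Rapa-2 males, against 117 to 131 in Rapa-1 and 114 to 146 in control males. After quantile normalization, the Y-linked gene Eif2s3y averaged 7.10 ± 0.16 on the log2 scale in Rapa-2 males, against 8.96 ± 0.09 in Rapa-1 and 8.87 ± 0.22 in control males (SD), while both female groups averaged 6.45. Xist, the X-linked RNA expressed in females, averaged 6.70 in Rapa-2 males and 6.71 in control males, against 7.78 in Rapa females and 7.95 in control females. In females, 37.1% to 42.5% of the probes were detected on a Rapa array and 40.4% to 47.4% on a control array. The summed signal of 10 hepatocyte markers, which its few brightest probes carry, had medians of 17.4 to 17.6 on the log2 scale over the groups. Singly, 1 of the 10 was higher and 3 were lower in Rapa females than in control females, and none was higher and 4 were lower in Rapa-2 than in control males, among them the transthyretin gene Ttr (14.39 in Rapa-2 and 15.09 in control males, adjusted p = 4.15e-11). Among all probes, 38.4% differed between the female groups and 36.3% between Rapa-2 and control males by the threshold given below. The named probe of the albumin gene, Alb, was detected on only 17 of the 69 arrays.

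Where the terminal components are concerned, the 4 genes lie on 2 chromosomes of the mouse assembly GRCm38.p6. C8b (chr4:104766317-104804548, forward strand) and C8a (chr4:104815679-104876487, reverse strand) are neighbours 11130 bases apart, with their 3′ ends facing each other. C6 (chr15:4727067-4804045) and C9 (chr15:6445346-6498825) lie on 1 chromosome, 1641300 bases apart. The 250 bases before the transcription start used in RefSeq's promoter table, which for C8a and C6 lies inside the gene's outer bounds, are shown for these 4 because C8a and C8b, though neighbours, differed in the comparisons below, while all 4 were correlated from animal to animal in Rapa females, control females and control males. The windows are C8a chr4:104876399-104876648 (reverse strand), C8b chr4:104766067-104766316, C6 chr15:4726960-4727209 and C9 chr15:6445096-6445345 (forward strand). Capitals mark matches, on either strand, to the letters TTCNNNGAA (bound by STAT factors), TTGCNNAA (bound by C/EBP factors) or GTTAAT (part of the HNF1 motif).
C8a: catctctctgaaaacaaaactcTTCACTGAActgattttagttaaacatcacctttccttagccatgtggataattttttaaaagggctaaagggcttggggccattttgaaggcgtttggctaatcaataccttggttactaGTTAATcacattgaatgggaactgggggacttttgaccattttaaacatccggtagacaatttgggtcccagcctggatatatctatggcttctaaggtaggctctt
C8b: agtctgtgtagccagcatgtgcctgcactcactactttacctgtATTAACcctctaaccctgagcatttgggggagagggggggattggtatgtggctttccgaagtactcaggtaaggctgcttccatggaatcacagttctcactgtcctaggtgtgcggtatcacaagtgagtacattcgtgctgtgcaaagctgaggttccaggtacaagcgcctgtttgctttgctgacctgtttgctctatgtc
C6: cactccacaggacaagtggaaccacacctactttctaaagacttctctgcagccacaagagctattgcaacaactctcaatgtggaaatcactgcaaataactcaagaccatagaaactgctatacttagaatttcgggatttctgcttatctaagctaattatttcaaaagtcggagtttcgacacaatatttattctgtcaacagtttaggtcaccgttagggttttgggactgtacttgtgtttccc
C9: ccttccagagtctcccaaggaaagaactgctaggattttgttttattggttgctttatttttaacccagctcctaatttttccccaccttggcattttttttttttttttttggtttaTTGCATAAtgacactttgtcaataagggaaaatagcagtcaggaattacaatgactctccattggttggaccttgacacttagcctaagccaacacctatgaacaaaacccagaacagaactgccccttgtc
The C8a window held 1 STAT match, 228 bases before the start, and 1 HNF1 match, 107 bases before it. The C8b window held 1 HNF1 match at 206 bases, the C9 window 1 C/EBP match at 132 bases, and the C6 window none of these letters. Of all 32851 promoter windows of this length, 7.02% held the STAT letters, 9.56% the C/EBP letters and 6.43% the HNF1 letters, and no 2 of the matches shown overlap. A match is a description of the letters only. The table also matched Masp2 and C3, but not Cfb, Cfi or Masp1.

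The first question was how the rapamycin diet changed these transcripts in females. Of the 8 genes, 3 were lower in Rapa females than in control females, Cfb, Masp1 and C8a, and none was higher by its representative probe, the one with the highest mean signal. A transcript counted as changed when its adjusted p was under 0.05 and the change over 15%. Among all 12442 probes tested in this comparison, 38.4% were changed, that is, 18.5% of all probes were lower and 20.0% higher, so 3 of 8 is close to that background. The median difference of the 8 genes was -0.25 on the log2 scale, against 0.028 over all probes.

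Cfb, the protease of the alternative pathway convertase, had log2 signals of 8.72 to 9.39 with a median of 8.99 in Rapa females, against 9.09 to 9.94 with a median of 9.53 in control females. Its mean was 1.41-fold lower in Rapa females (log2 difference -0.50 ± 0.07 SE, limma adjusted p = 1.93e-07), and 21 of 21 Rapa females lay below the control mean, although the groups overlapped. The unnormalized bead signal had a median of 392 in Rapa females and 793 in control females.

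Masp1, whose serine protease activates the lectin pathway, had signals of 9.90 to 10.98 with a median of 10.33 in Rapa females, against 10.27 to 11.45 with a median of 10.75 in control females. The mean was 1.43-fold lower in Rapa females (log2 difference -0.51 ± 0.10 SE, limma adjusted p = 2.15e-05), with 20 of 21 animals below the control mean. After adjustment for the share of probes detected on each array, the difference was -0.34 with an adjusted p of 0.12 and was no longer past the threshold.

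C8a, which encodes the alpha chain of the eighth component, had signals of 6.74 to 8.63 with a median of 7.26 in Rapa females, against 7.00 to 10.84 with a median of 8.41 in control females. It was 2.16-fold lower in Rapa females (log2 difference -1.11 ± 0.30 SE, limma adjusted p = 0.00204), and it was detected on 14 of 21 arrays of Rapa females and on all 16 of control females. The control females spread over a wide range, and the call rested on part of them. Their animal numbers fall into a lower and a higher run, whose C8a means were 9.29 ± 1.25 (SD, n = 7) and 8.10 ± 1.02 (SD, n = 9). Against the higher-numbered controls alone the log2 difference was -0.59 (adjusted p = 0.10), and after adjustment for each array's detected share it was -0.18 (adjusted p = 0.83).

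C8b, its partner beta chain, did not pass. Its signals ran from 7.85 to 11.94 with a median of 9.26 in Rapa females and from 7.62 to 11.73 with a median of 10.30 in control females, and the difference of means was -0.19 ± 0.41 (SE, adjusted p = 0.72). Both female groups therefore covered nearly the whole range seen for this gene. C6, an early member of the pore, had medians of 8.77 in Rapa females and 9.30 in control females, with a difference of -0.32 ± 0.21 (SE, adjusted p = 0.20). Cfi, the protease that inactivates the convertase subunits, had medians of 13.53 and 13.69 in Rapa and control females and a difference of -0.15 ± 0.08 (SE, adjusted p = 0.11).

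Masp2, the protease that cleaves the early classical and lectin components, was measured by 3 probes that all had a positive difference in Rapa females. The representative probe averaged 11.80 ± 0.13 in Rapa females and 11.61 ± 0.31 in control females (SD), a 1.14-fold difference with an adjusted p of 0.0246 that stayed just under the 15% limit. The other probes passed, ILMN_3101073 with a log2 difference of 0.42 ± 0.08 (SE, adjusted p = 4.78e-05) and ILMN_3027989 with 0.33 ± 0.07 (adjusted p = 5.93e-05). These positive differences depended on the scaling. With arrays scaled to a common median in place of quantile normalization, the median over all probes was -0.20, the representative Masp2 probe stood at -0.18, and the other probes at 0.016 and -0.065, so that none passed and all lay above that median.

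C9, the component that forms most of the pore, was the gene whose probes did not run alike. The brightest probe, ILMN_2937375, had medians of 12.26 in Rapa females and 12.29 in control females and a difference of -0.15 ± 0.24 (SE, adjusted p = 0.61). ILMN_2937379 had signals of 8.20 to 10.19 with a median of 9.02 in Rapa females, against 8.50 to 11.15 with a median of 9.88 in control females, and was 1.84-fold lower in Rapa females (log2 difference -0.88 ± 0.21 SE, adjusted p = 5.77e-04). That second call was also lost against the higher-numbered controls (difference -0.58, adjusted p = 0.056) and after adjustment for the detected share (-0.46, adjusted p = 0.38). The remaining probe, ILMN_2594846, was detected on 0 of 21 Rapa females and 4 of 16 control females, and no fold is given for it.

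**Figure D1:**
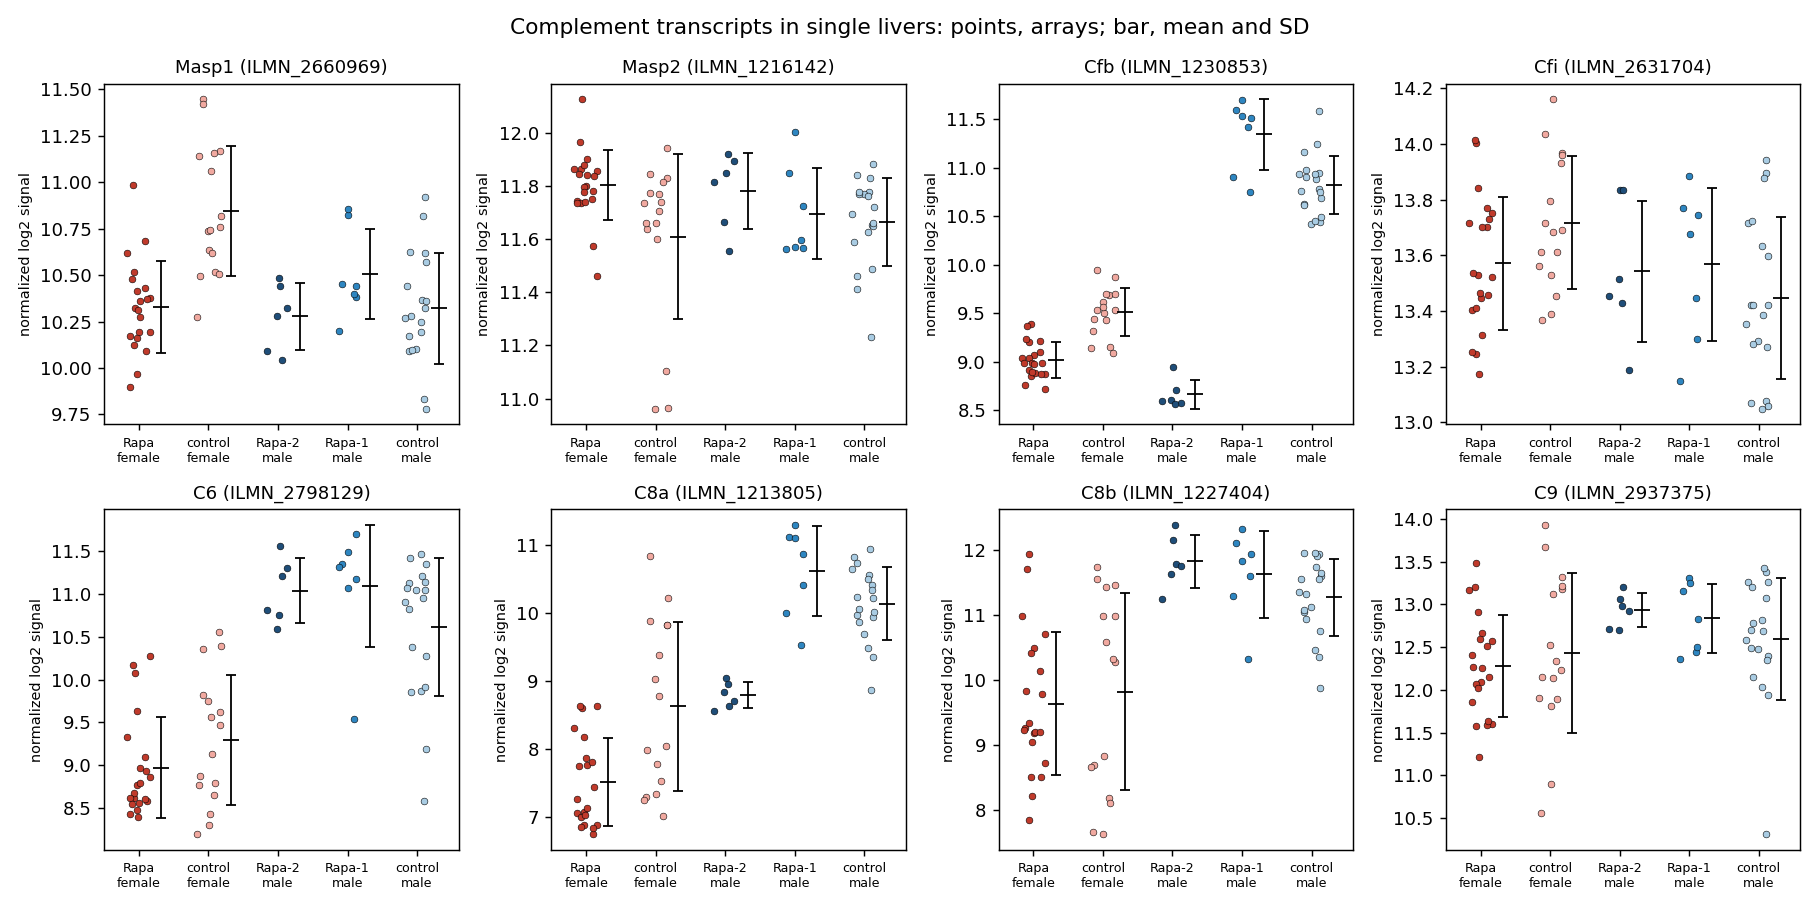
Normalized log2 signal (vertical axes) of the representative probe of the 8 genes in every liver, by group (horizontal axes). Points are arrays and bars give mean and SD; Cfb in Rapa-2 males (8.56 to 8.95) lies below every other male, and C6 and C8b average lower in both female groups than in each male group.

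Markers of neutrophils moved with the diet in females. Of 8 such genes tested, 7 were lower in Rapa females than in control females and none higher, and the summed signal ranged from 9.71 to 14.78 in Rapa females and from 10.03 to 15.95 in control females. Markers with a probe included the defining S100a8, which averaged 8.97 in Rapa females and 11.33 in control females, and Mpo, which averaged 6.87 and 8.05 in the same order. Over all probes, 18.5% were lower and 20.0% higher. The Kupffer cell and macrophage list had 3 of 7 lower, the endothelial list 2 of 9, the stellate list 2 of 8, the cholangiocyte list 0 of 2 and the lymphocyte list 0 of 5, with none higher. The part of these cells in the complement values was not tested. In whole liver, fewer cells of a type and less RNA in each cell cannot be told apart.

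In males, none of the 8 genes passed for the diet as a whole. Over all 13 Rapa males against control males, 0 of 8 passed, where 10.6% of all probes did, 7.52% lower and 3.06% higher, and the lowest adjusted p was 0.11, for C8b. For Cfb the log2 difference was -0.71 ± 0.32 (SE, adjusted p = 0.12), with 7 of 13 animals below and 6 above the control mean. The 6 Rapa-2 and the 7 Rapa-1 males did not overlap in Cfb. Without Rapa-1 male replicate 5, C8b passed (log2 difference 0.56, adjusted p = 0.029).

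Cfb separated Rapa-2 from all other males. Its signals were 8.56 to 8.95 with a median of 8.60 in Rapa-2 males, against 10.75 to 11.69 with a median of 11.51 in Rapa-1 males and 10.42 to 11.59 with a median of 10.78 in control males. The mean was 4.45-fold lower in Rapa-2 than in control males (log2 difference -2.15 ± 0.12 SE, limma adjusted p = 5.10e-14) and 6.40-fold lower than in Rapa-1 males (-2.68 ± 0.15 SE, adjusted p = 3.08e-09). The groups did not overlap, as was true of 9.42% of all probes on the lower and 2.18% on the higher side against control males, and of 11.4% and 6.04% against Rapa-1 males. With adjustment for the raw median of each array the difference from control males was -2.01 (adjusted p = 3.61e-05). Raw medians did not overlap between Rapa-2 and other males, so this adjustment cannot separate array median from group for Cfb either. The level in Rapa-2 males was lower than that in both female groups, with Rapa females 0.35 ± 0.08 above it (SE, adjusted p = 0.00177) and a difference of -0.85 ± 0.11 against control females (adjusted p = 6.55e-06).

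C8a had the same order among the male groups. It had signals of 8.55 to 9.04 with a median of 8.77 in Rapa-2 males, against 9.53 to 11.29 with a median of 10.87 in Rapa-1 males and 8.87 to 10.94 with a median of 10.22 in control males. The mean was 2.55-fold lower in Rapa-2 than in control males (log2 difference -1.35 ± 0.21 SE, adjusted p = 1.12e-05) and 3.56-fold lower than in Rapa-1 males (-1.83 ± 0.25 SE, adjusted p = 6.24e-05). All Rapa-2 males lay below all Rapa-1 males, as was true of 11.4% of all probes, and they overlapped only the lowest control male. After adjustment for the raw median of each array the difference from control males was -0.57 (adjusted p = 0.51) and that from Rapa-1 males -1.54 (adjusted p = 0.72), so neither call remained past the threshold. Raw medians of Rapa-2 arrays did not overlap those of other males, so this adjustment cannot separate array median from group. Over all probes, 1505 passed with it and 4516 without it against control males, and 258 and 4228 against Rapa-1 males.

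C9 again depended on the probe. ILMN_2937379 had signals of 9.43 to 10.31 with a median of 9.68 in Rapa-2 males, against 10.95 to 11.91 with a median of 11.59 in Rapa-1 males and 9.08 to 11.80 with a median of 11.18 in control males. It was 2.42-fold lower in Rapa-2 than in control males (log2 difference -1.27 ± 0.25 SE, adjusted p = 1.59e-04) and lower than in Rapa-1 males without overlap (-1.67 ± 0.19 SE, adjusted p = 8.51e-06). Over all probes, 11.4% were lower without overlap in the latter comparison. Both calls were lost after adjustment for the raw median (adjusted p = 0.37 and 0.19), which cannot be separated from the Rapa-2 group. The brightest probe, ILMN_2937375, did not pass in either comparison, with a median of 12.95 in Rapa-2 males, against 12.83 in Rapa-1 and 12.68 in control males. ILMN_2594846 was detected on 1 of 6 Rapa-2 arrays, against 6 of 7 Rapa-1 and 16 of 19 control male arrays, and was lower in Rapa-2 than in Rapa-1 males (adjusted p = 0.0105).

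No other member passed in Rapa-2 males by its representative probe. Thus 2 of 8 genes were lower and 0 higher than in control males, where 15.4% of all probes were lower and 20.9% higher, and 36.3% changed in all. Against Rapa-1 males the count was again 2 lower and 0 higher, with 34.0% of all probes changed, 14.8% lower and 19.2% higher. C8b had a positive difference from control males of 0.55 ± 0.25 (SE, adjusted p = 0.065), with signals of 11.24 to 12.38 in Rapa-2 males and 9.87 to 11.95 in control males. C6 (0.43 ± 0.32) and the brightest C9 probe (0.33 ± 0.28) also had positive differences that did not pass (adjusted p = 0.28 and 0.33), and Masp1 stood at -0.04 ± 0.12 (adjusted p = 0.79).

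Some cell type markers also differed in the Rapa-2 group, where 36.3% of all probes were changed against control males and 34.0% against Rapa-1 males. Against control males, 4 of 10 hepatocyte markers were lower and none higher, 4 of 9 endothelial markers were higher and 1 lower, and 1 of 7 Kupffer cell and macrophage markers, 1 of 2 cholangiocyte markers and 1 of 8 stellate markers were lower, with 1 stellate marker higher. None of the 8 neutrophil or 5 lymphocyte markers passed. Against Rapa-1 males, 4 hepatocyte, 2 Kupffer cell, 1 neutrophil, 1 cholangiocyte and 1 stellate markers were lower, and 1 endothelial and 1 stellate markers higher. The part of these cells in the complement values was not tested.

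Between Rapa-1 and control males none of the 8 genes passed, where 0.378% of all probes did. The median difference of the 8 genes was 0.30 on the log2 scale, against 1.37e-05 over all probes. The nearest was Cfb, with 6 of 7 animals above the control mean and a 1.44-fold higher mean in Rapa-1 males (log2 difference 0.52 ± 0.13 SE, adjusted p = 0.070). This value passed in a single model of all arrays (adjusted p = 0.022) and with number runs as random blocks (0.018). The other 7 genes had differences of 0.033 to 0.48 that did not pass.

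**Figure D2:**
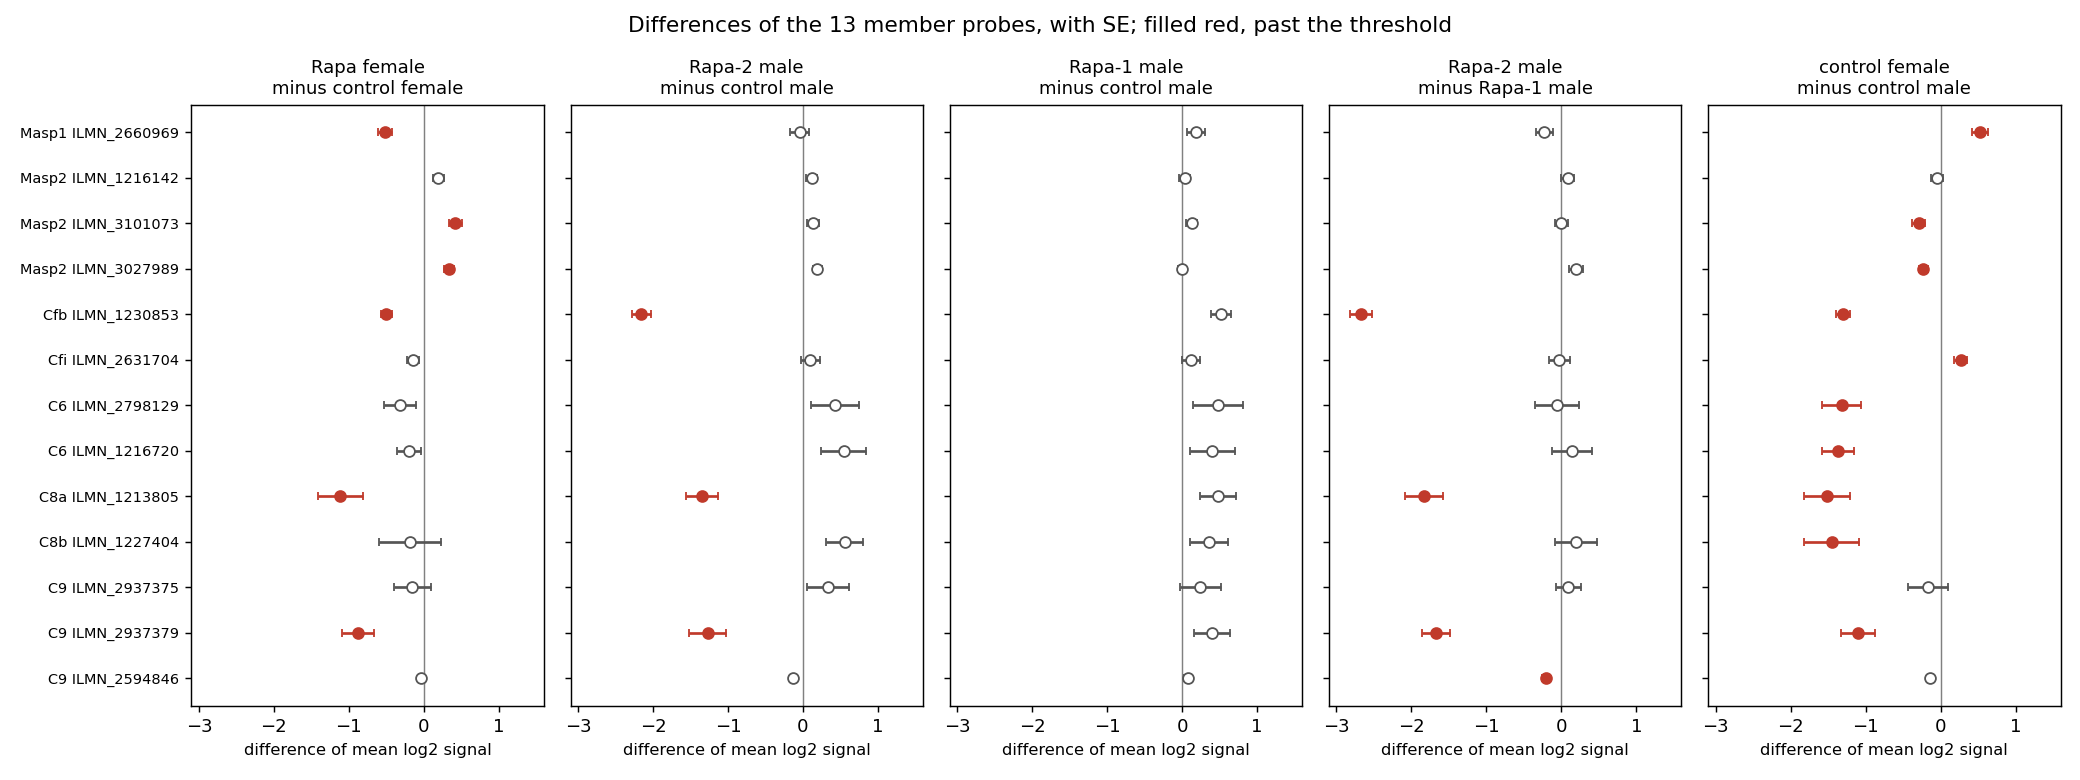
Differences of mean log2 signal (horizontal axes, SE as bars) of the 13 probes in 5 comparisons, with filled red points past the threshold. Cfb is at -2.15 in Rapa-2 against control males and at 0.52 in Rapa-1 against control males, and in Rapa females against control females C9 is at -0.88 by ILMN_2937379 and at -0.15 by ILMN_2937375.

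The pairs C8b and C8a, and the 2 bright C9 probes, were then compared within each array, which takes out any shift common to both probes. The difference between 2 probes has no meaning as a level, so only its change between groups is given. The pairs were chosen because their probes had parted between these groups, so the values are a description, with no test. C8b minus C8a averaged 2.12 ± 0.58 in Rapa females and 1.20 ± 0.67 in control females (SD), a change of 0.93. It averaged 3.04 ± 0.27 in Rapa-2 males, against 1.01 ± 0.27 in Rapa-1 and 1.13 ± 0.36 in control males, a change of 1.91 from control males. Every Rapa-2 male lay above every other male on this measure. Between control females and control males the same measure was 1.20 and 1.13, a change of 0.062. On unnormalized signals the changes were 0.78 in females and 1.97 in Rapa-2 against control males.

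For C9, ILMN_2937375 minus ILMN_2937379 averaged 3.22 ± 0.37 in Rapa females and 2.50 ± 0.39 in control females (SD), a change of 0.73. In Rapa-2 males it averaged 3.17 ± 0.29, against 1.40 ± 0.16 in Rapa-1 and 1.57 ± 0.20 in control males, changes of 1.77 and 1.61. Between the sexes it was 2.50 in control females and 1.57 in control males, a change of 0.93. Within groups the 2 probes correlated at r = 0.89 over 69 arrays, so animals high in one were high in the other. The annotation used here does not say which part or isoform of C9 each probe reads.

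**Figure D3:**
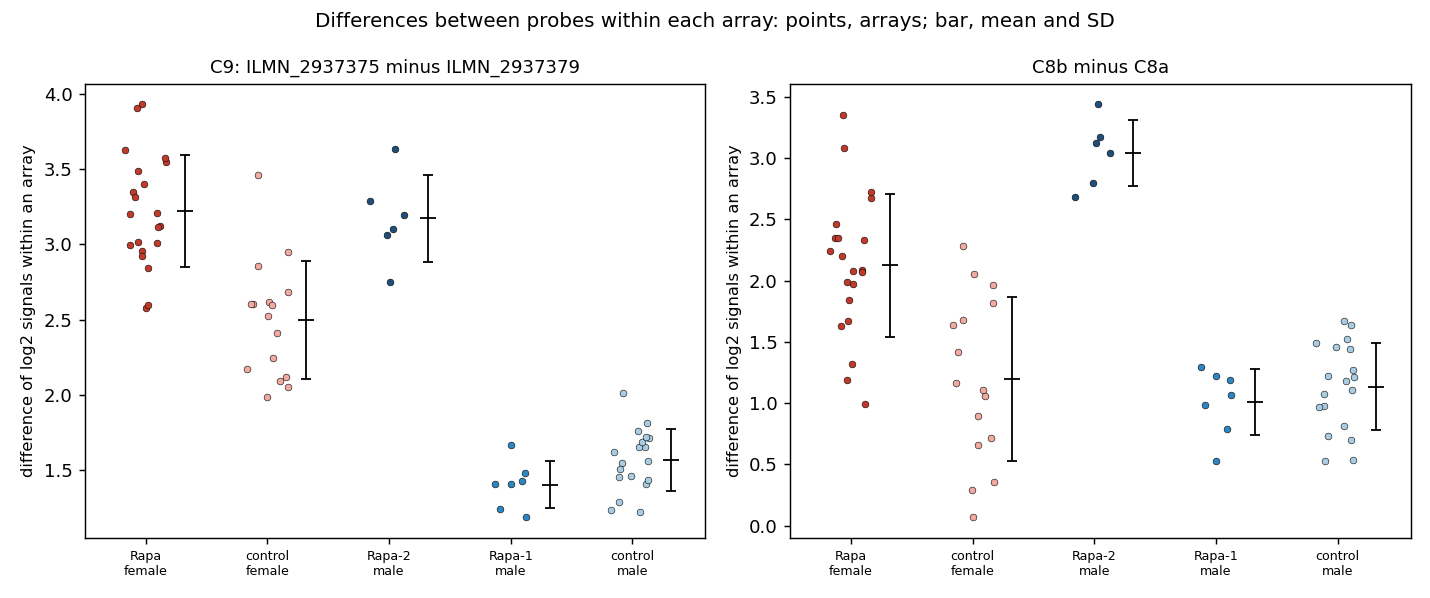
Difference of log2 signals between 2 probes of C9 (left) and between C8b and C8a (right) in each array, by group, with mean and SD as bars. Rapa-2 males (2.75 to 3.63 for C9) lie above all other males in both panels, and Rapa females lie higher than control females with overlap.

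The second question was how the sexes differ. Control females differed from control males in 6 of the 8 genes, with 4 lower, C6, C8a, C8b and Cfb, and 2 higher, Cfi and Masp1. In this comparison 35.6% of all probes were changed, 16.1% of all being lower and 19.5% higher. The median of the 8 differences was -0.74, against 0.051 over all probes.

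Of the 4 lower genes, 3 belong to the terminal pathway. C6 had signals of 8.19 to 10.56 with a median of 9.30 in control females, against 8.58 to 11.47 with a median of 10.95 in control males, and was 2.50-fold lower in females (log2 difference -1.32 ± 0.26 SE, adjusted p = 5.00e-05). Its second probe gave -1.37 ± 0.21 (adjusted p = 1.39e-06). All 16 control females lay below the male mean on both probes.

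C8a was 2.86-fold lower in control females (medians 8.41 in control females and 10.22 in control males, log2 difference -1.51 ± 0.30 SE, adjusted p = 7.60e-05). C8b was 2.74-fold lower (medians 10.30 and 11.34 in the same order, -1.45 ± 0.36 SE, adjusted p = 0.00103), with 4 of 16 control females above the male mean. The female livers were more variable than the male ones in both genes, with SDs of 1.25 and 0.54 for C8a and 1.52 and 0.59 for C8b in control females and control males. Restricted to the lower-numbered controls of both sexes, the differences of C6 (-0.88), C8a (-0.73) and C8b (-0.72) no longer passed, with adjusted p of 0.16, 0.28 and 0.33, while the second C6 probe did (-1.18, adjusted p = 0.028). With the higher-numbered controls the differences were -1.62 for C6, -2.10 for C8a and -1.99 for C8b, and all 3 passed.

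Cfb was 2.47-fold lower in control females (-1.31 ± 0.09 SE, adjusted p = 1.02e-14), and no control female, at 9.09 to 9.94, reached the lowest control male, at 10.42. Among all probes 5.06% were lower without overlap. In the opposite direction, Masp1 was 1.44-fold higher (medians 10.75 in control females and 10.28 in control males, 0.52 ± 0.11 SE, adjusted p = 8.99e-05) and Cfi 1.21-fold higher (13.69 and 13.42, 0.27 ± 0.09 SE, adjusted p = 0.0104). Neither Masp1 nor Cfi passed with the higher-numbered controls (0.27 and 0.22, adjusted p = 0.062 and 0.10). After adjustment for the raw median of each array only Cfb and C8a still passed (adjusted p = 2.87e-08 and 0.048). Raw medians were 92.4 to 119 in control females and 113.8 to 146 in control males. They overlap little, so this adjustment can hardly separate array median from sex. Of all probes, 3946 passed with it and 4433 without it.

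Of the C9 probes, the brightest did not pass (-0.17 ± 0.27, adjusted p = 0.62) and ILMN_2937379 was 2.14-fold lower in control females (adjusted p = 9.91e-05). The sign for the brightest probe differed between the runs of animal numbers. In the lower runs it averaged 12.95 ± 0.76 in control females and 12.40 ± 1.04 in control males (SD). In the higher runs it averaged 12.03 ± 0.90 and 12.71 ± 0.45 in the same order. The representative Masp2 probe did not pass (-0.05 ± 0.08, adjusted p = 0.59), and its other probes were lower at -0.29 and -0.23. Neutrophil markers differed here too, with 7 of 8 higher in control females than in control males and none lower, and a summed signal of 10.03 to 15.95 in control females and 9.75 to 14.44 in control males. Of the other lists, the endothelial one had 5 of 9 higher and 2 lower in control females, the hepatocyte one 2 of 10 higher and 2 lower, the Kupffer cell and macrophage one 2 of 7 higher and 1 lower, the stellate one 1 of 8 higher, the cholangiocyte one 1 of 2 lower and the lymphocyte one 0 of 5. Over all probes, 19.5% were higher and 16.1% lower in control females. The part of these cell types was not tested.

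Whether the diet acted unequally in the sexes was tested by the interaction of diet and sex over all 69 arrays. By representative probes only Masp1 passed, where 20.4% of all probes did, 11.2% with a positive and 9.27% with a negative interaction. Its diet difference was -0.51 in females and 0.08 in males, an interaction of -0.59 ± 0.14 (SE, adjusted p = 0.00184). The level of Masp1 in Rapa females (10.33 ± 0.25, SD) was close to that in control males (10.32 ± 0.30), with a difference of 0.01 ± 0.08 (SE, adjusted p = 0.93). Restricted to the higher-numbered controls, the interaction of Masp1 was -0.34 (adjusted p = 0.16), and with number runs as random blocks its adjusted p was 0.47. The loss was general, since 393 and 0 of all 12442 probes passed in these settings, against 2543 in the main fit. No run holds both diets, so the random blocks cannot be separated from the diet. The 2 other Masp2 probes also passed, at 0.29 and 0.25. For Cfb the interaction was 0.22 ± 0.31 (adjusted p = 0.64) over all Rapa males, 1.66 (5.32e-16) without Rapa-1 males and -1.02 (9.36e-08) without Rapa-2 males, so its sign was set by which Rapa males entered. For C8a it was -0.75 (adjusted p = 0.19) over all, 0.24 (0.75) without Rapa-1 males and -1.59 (0.00349) without Rapa-2 males.

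The order of the 5 groups differed among the members. For Cfb it was Rapa-1 males, control males, control females, Rapa females and Rapa-2 males from high to low, and only the first 2 neighbours did not differ past the threshold. For C8a it was Rapa-1 males, control males, Rapa-2 males, control females and Rapa females, where Rapa-1 and control males did not pass and neither did Rapa-2 males and control females (0.16 ± 0.49 SE, adjusted p = 0.83). C6 and C8b fell into a male level and a female level, with no passing difference among the 3 male groups or between the 2 female groups, and with every male group higher than every female group past the threshold. The brightest C9 probe was lower in Rapa females than in Rapa-2 males (-0.65 ± 0.24 SE, adjusted p = 0.038) and than in Rapa-1 males (-0.56 ± 0.23, adjusted p = 0.038), while no other pair of groups passed. For Cfi only control females and control males differed past the threshold, and for Masp2's representative probe no pair passed the 15% limit.

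Animal by animal, most of the members except Masp2 tended to vary together in the 3 larger groups. Over the 28 pairs of the 8 genes in the 5 groups, 140 correlations were computed, of which 52 passed by Pearson's r and 40 by Spearman's rho after adjustment over the 140, and 38 by both (permutation tests, two-sided, exact in the Rapa-2 and Rapa-1 groups). The 6 pairs among C6, C8a, C8b and C9 had r of 0.61 to 0.90 in Rapa females, 0.69 to 0.90 in control females, -0.02 to 0.82 in Rapa-2 males, 0.42 to 0.92 in Rapa-1 males and 0.78 to 0.86 in control males. All 6 passed in control males and in control females by both measures, and in Rapa females all 6 passed by r and 3 by rho. Of the same pairs, 2 passed by r and none by rho in Rapa-1 males. The covariation was not particular to these genes, since of the 15 pairs outside these 6 and without Masp2, 10 passed by r in Rapa females and 6 in control females, and 13 did in control males, with 3 in Rapa-1 males. In Rapa-2 males none of the 28 pairs passed, with 6 animals. The share of all gene pairs passing these tests was not computed, so the counts have no such background. Taken as deviations from the group means over all arrays, the 28 pairs had a median r of 0.55. The median r of a member with all other genes, taken in the same way, had a median of 0.0011 over the members. These medians are signed and give no share of pairs passing.

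For the neighbours C8a and C8b, r was 0.90 in Rapa females (rho = 0.83, permutation adjusted p = 3.5e-04 and 4.7e-04), 0.90 in control females (rho = 0.87) and 0.81 in control males (rho = 0.75). Without the 2 animals farthest from the median of C8a these r were 0.89, 0.94 and 0.70. In Rapa-1 males r was 0.92 (rho = 0.75, exact permutation adjusted p = 0.013 and 0.14) and 0.61 without the 2 farthest animals. Within the lower and higher runs of animal numbers they were 0.89 and 0.93 in control females and 0.86 and 0.72 in control males.

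Masp2 stood apart, with r of -0.57 to 0.69 with the other 7 genes and 0 of 35 relations passing. In Rapa females its r was also taken without the 2 animals farthest from the median of the other gene, which can differ from pair to pair. The r of Masp2 then ranged from -0.15 to 0.65. It rose from 0.14 to 0.60 with C6 and from 0.28 to 0.65 with C8a, and it fell with each of the other genes. The pairs of C6, C8a, C8b and C9 were treated alike, leaving out the 2 animals farthest from the median of each pair's first gene. They kept r of 0.58 to 0.89 in Rapa females, 0.81 to 0.94 in control females and 0.57 to 0.80 in control males. Within the runs of animal numbers they ranged from 0.55 to 0.94 in the control groups. All genes of an array share its RNA sample.

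**Figure D4:**
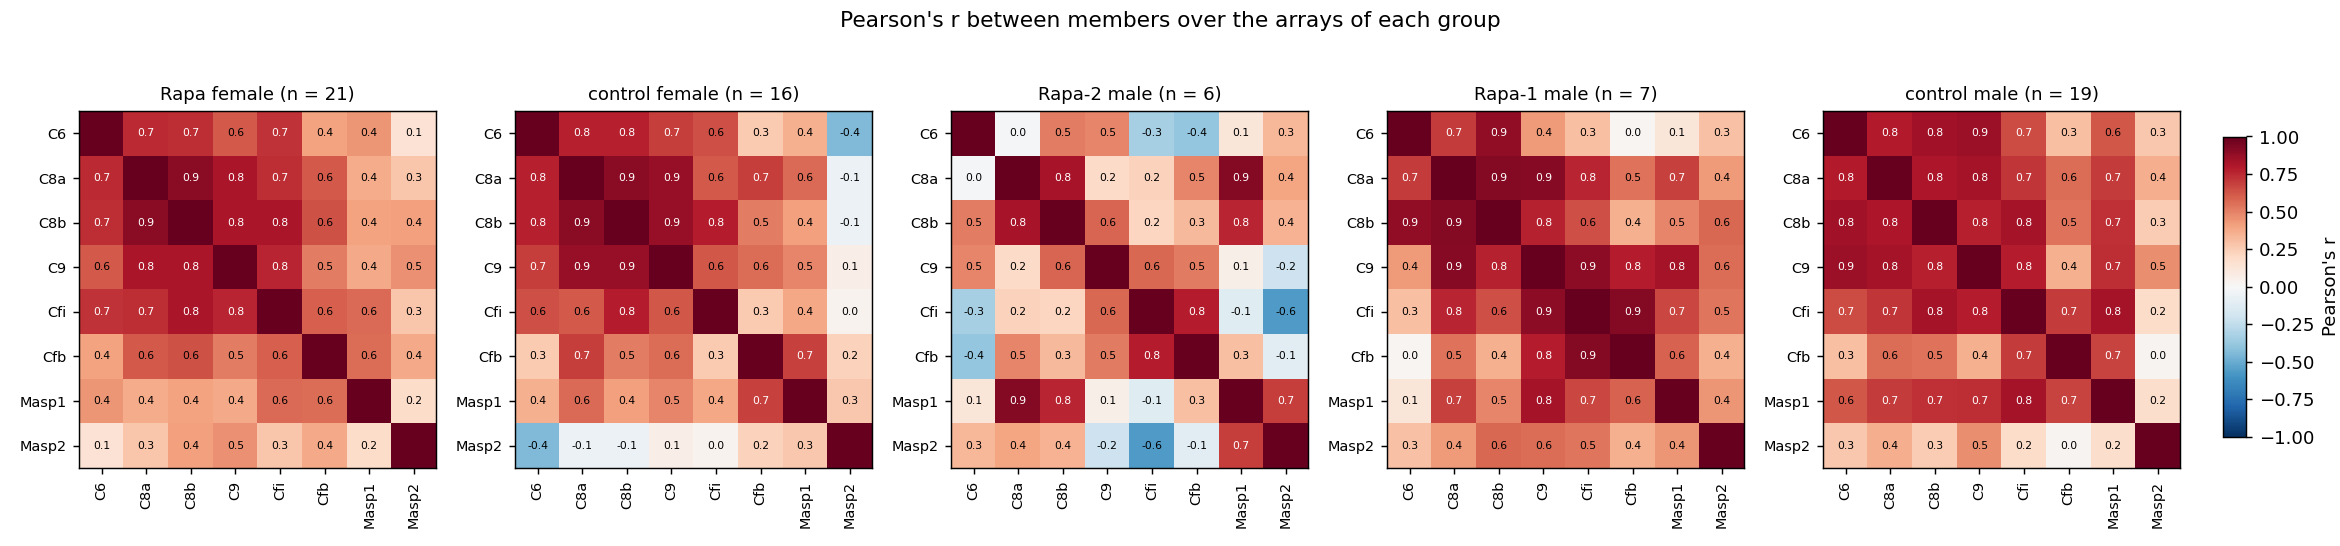
Pearson's r between the 8 genes over the arrays of each group, with color from -1 (blue) to 1 (red) and the rounded r in each square. The block of C6, C8a, C8b and C9 is at 0.61 to 0.90 in Rapa females and 0.78 to 0.86 in control males, and the row of Masp2 is pale.

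The genes whose deviations from the group means were most like those of each member, over 69 arrays and 8728 other genes, included other complement genes. C8a was most like C8b (r = 0.88) and C4bp (0.84), which encodes a chain of an inhibitor of the classical convertase, and C8b was most like C8a and C9 (0.80). C9 was most like Serping1 (0.83), the gene of the C1 inhibitor, and C8a (0.83). Cfi was most like the plasma protein genes Vtn (0.89), which encodes the pore inhibitor vitronectin, and Itih3 (0.86). C6 was most like Serpina1e (0.82) and Manba (0.74), and Cfb most like Srpr (0.75) and Naglu (0.72). Masp1 was most like Pid1 (0.79) and Apon (0.76), and Masp2 most like Timd2 (0.83) and Gpr89 (0.76).

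Beyond the listed members, 48 other genes of complement were examined, of which 39 had a named probe and 28 passed the signal filter. In Rapa females 5 of the 28 were higher and 5 lower than in control females, close to the 20.0% and 18.5% of all probes. Among the regulators, C4bp averaged 11.19 ± 0.41 in Rapa females and 11.99 ± 0.50 in control females (SD; log2 difference -0.80, adjusted p = 1.17e-05), and Cpn1, the catalytic chain of the carboxypeptidase that inactivates anaphylatoxins, averaged 10.54 and 10.08 (0.46, adjusted p = 1.59e-05). The dim probe of Cfhr2 (-0.41) was also lower in Rapa females, as was that of the decay-accelerating factor Cd55, detected on 1 of 21 Rapa females and 14 of 16 control females (adjusted p = 8.64e-07). Of the initiating genes, C1rl was higher (0.48) and C1s2 lower (-0.22), and C8g, which encodes the gamma chain of the eighth component, was higher (13.81 in Rapa females and 13.55 in control females, 0.26, adjusted p = 0.0166). Thus among the 3 chains of that component C8a was lower, C8g higher and C8b did not pass in Rapa females. With median scaling none of the 28 was higher and 16 were lower, and after adjustment for the detected share none passed.

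In Rapa-2 males 2 of the 28 were higher and 6 lower than in control males, where 20.9% and 15.4% of all probes were. Cfhr2 averaged 7.07 ± 0.11 in Rapa-2 males and 8.01 ± 0.23 in control males (SD; log2 difference -0.94, adjusted p = 3.74e-09), and C4bp differed by -0.43 (adjusted p = 0.0172). Cd55, detected on 2 of 6 Rapa-2 and 19 of 19 control male arrays, was lower too (adjusted p = 1.41e-05). Mbl2, a mannose-binding lectin of the kind that carries the MASP proteases, averaged 11.49 ± 0.23 in Rapa-2 males and 11.94 ± 0.30 in control males (-0.45, adjusted p = 0.00613). The other such lectin gene of mice, Mbl1, did not pass and had a positive difference (11.65 in Rapa-2 and 11.47 in control males, adjusted p = 0.19). C1s2 differed by -0.48. The collectin Colec10 was detected on none of the 6 Rapa-2 arrays and on all 19 control male arrays and was at least 1.13-fold lower, a bound taken from the lowest detected signal of each array. The control males alone met the signal filter for Colec10, so this call is a description. Cr1l was higher (0.28). Against Rapa-1 males 0 were higher and 7 lower, where 19.2% and 14.8% of all probes were, and the 7 were Cfhr2 (-1.10), C4bp (-0.65), Mbl2 (-0.62), C1s2 (-0.62), Cd55, Cd59b (-0.41) and Colec10, which was detected on 5 of 7 Rapa-1 arrays and was at least 1.18-fold lower. In Rapa-1 and in all Rapa males against control males 0 of 28 passed.

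Between the sexes, 5 of the 28 were higher and 7 lower in control females, where 19.5% and 16.1% of all probes were. Hc, which encodes the fifth component, averaged 12.32 ± 0.43 in control females and 11.71 ± 0.45 in control males (SD; 0.61, adjusted p = 6.19e-04), and C4b was higher by 0.46, so these upstream components ran opposite in sign to C6, C8a and C8b. The membrane inhibitor of the pore, CD59, is encoded by a pair of genes in mice, and Cd59a was higher by 0.61 while Cd59b was lower by 0.68 in control females. Cfhr2 was lower (-0.70), as was Susd4, which was detected on 1 of 16 control females and 17 of 19 control males (adjusted p = 2.03e-07). Itgb2 and Colec10 were not detected on any control female, and in control females they were at least 1.01-fold and 1.16-fold lower. The interaction of diet and sex passed for 5 of the 28, against 20.4% of all probes, C4bp (-0.72), Vtn (-0.32), Cd59a (-0.24), C1rl (0.40) and Cpn1 (0.30).

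A list of 20 cytokine receptors, kinases and liver transcription factors, of which 17 were tested, had 2 higher and 2 lower in Rapa females than in control females. Over all probes, 20.0% were higher and 18.5% lower in that comparison, so the list did not exceed that background. The genes of it named here, like the neutrophil genes above, were chosen after their values were seen. Cebpa, whose protein binds the C/EBP letters shown above, was higher (9.73 ± 0.35 in Rapa females and 9.24 ± 0.51 in control females, SD), and Hnf4a lower (11.40 ± 0.19 and 11.80 ± 0.27 in the same order). Foxa1 was also higher (0.38), and Esr1, the estrogen receptor gene, was lower but was detected on no Rapa female and on 10 of 16 control females. These directions were not recomputed with median scaling. In Rapa-2 males 4 of the 17 were higher and 3 lower than in control males, close to the 20.9% and 15.4% of all probes. Cebpa was again higher (9.23 ± 0.34 in Rapa-2 males and 8.71 ± 0.22 in control males) and Hnf4a lower (11.33 ± 0.13 and 11.75 ± 0.31). Esr1 was detected on none of the 6 Rapa-2 arrays and on all 19 control male arrays, at least 1.67-fold lower. Stat3 did not pass in either comparison, and no relation of these genes to the complement values was tested.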

How the data were processed

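Values came from Illumina MouseRef-8 bead arrays, 1 for each liver. The authors' deposited signals are bead intensities without normalization, and the deposited detection score equals 1 minus the detection p. The authors' processed values, deposited as log2 signals after quantile normalization, matched the values recomputed here (lowest r 0.99992). Log2 intensities were quantile-normalized over 25697 probes, and 12442 probes with detection p under 0.05 on at least 13 arrays were tested. Symbols came from the platform annotation, updated through RefSeq, and each gene is represented by its probe of highest mean signal. Pairs of groups were compared with limma 3.58.1 in R 4.3.3, with Benjamini-Hochberg adjustment over all probes and the study's limits of adjusted p under 0.05 and a change over 15%; the interaction used adjusted p alone. Resampled permutation tests used 100000 draws. The fits were tested on simulated data. Besides all member probes, up to 4 passing genes of each other complement list with the largest difference, and the 2 genes most like each member, are named. The members and lists were chosen with earlier results of these data known. Alternatives were background correction, detection filters, the authors' values, median scaling, the methods' t-test, other variance models, fold limits, covariates, a replicate block and runs of animal numbers; 4 choices were added after seeing the data: number runs as random blocks, and leaving out control male replicate 2, Rapa-1 male replicate 5, or Rapa females 1 and 2. Runs of animal numbers are no labelled batch, and no run holds both diets. The number of arrays limits the precision.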

Additional observations from a re-analysis of the deposited data

Results flagged for a closer look

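C6 in Rapa-1 male replicate 5 lay far below its group on both probes, at 9.53 on the representative probe where the nearest of the other 6 animals was at 11.07, and at 8.63 on ILMN_1216720 where the nearest was at 9.97. Of 26 groups of 4 to 10 animals examined for such a gap, these 2 were marked, both from 1 array, and chance alone marks about 1 in 20.

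The diet difference differed between females and males for Masp1, with an interaction of -0.59 (adjusted p = 0.00184; females -0.51, males 0.08). It also differed for 2 probes of Masp2, ILMN_3101073 at 0.29 (adjusted p = 0.041; females 0.42, males 0.13) and ILMN_3027989 at 0.25 (adjusted p = 0.038; females 0.33, males 0.09), by the interaction test of limma over 69 arrays.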

How the results depend on the processing

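The counts of the 8 genes past the threshold moved in several settings. Given first are moves to or from 0, or by over 1.5-fold. In Rapa females, 3 became 5 with median scaling (all lower) and with the lower-numbered controls, and 1 with a minimum of 1.5-fold and after adjustment for the detected share. Over all Rapa males, 0 became 1 in a single model of all arrays (Cfb, lower) and without Rapa-1 male replicate 5 (C8b, higher). In Rapa-1 males, 0 became 1 (Cfb, higher) in the single model and with number runs as random blocks. In Rapa-2 males, against control males and against Rapa-1 males, 2 became 1 after adjustment for the raw array median. In control females, 6 became 2 after that adjustment and with the lower-numbered controls. For the interaction, 1 became 3 with median scaling and without Rapa-2 males, 2 after adjustment for the raw median, without Rapa-1 males and without Rapa-1 male replicate 5, 4 with the lower-numbered controls, and 0 with the higher-numbered controls and with number runs as random blocks. Smaller moves were as follows. Rapa females went from 3 to 2 with the higher-numbered controls, and to 4 with no fold minimum and without Rapa females 1 and 2. Control females went from 6 to 4 with a minimum of 1.5-fold, and to 5 with median scaling and with the higher-numbered controls (all 5 lower). Rapa-2 against control males went from 2 to 3 with the replicate block and with number runs as random blocks. Among values past the threshold in at least 1 of the 2 fits, reversed in sign were Masp2 probe ILMN_3027989 in Rapa females with median scaling (-0.065, against 0.33), the interactions of Masp2 probes ILMN_3101073 (-0.062, against 0.29) and ILMN_3027989 (-0.067, against 0.25) with median scaling, and the interaction of Cfb without Rapa-2 males (-1.02, against 0.22). Others changed sign without passing in either fit, such as the representative Masp2 probe in Rapa females with median scaling (-0.18, against 0.19) and the C8a interaction without Rapa-1 males (0.24, against -0.75). The cause was not tested. Median scaling moved the median of all probes in Rapa females to -0.20 and the share of changed probes that were higher to 1.33%, against 51.9%; in all Rapa males that share became 5.34% against 28.9%, in Rapa-2 against control males 34.8% against 57.5%, and in the interaction 6.87% against 54.7%. Of 1428 single-probe values under the alternatives, 1337 kept their direction and side of the threshold, or were past it in neither fit, 52 fell under it and 35 passed it.

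Same-numbered animals did not pair the samples, since in no comparison did every pair correlate over 0.1 (5 of 16 pairs in females, 5 of 6 in Rapa-2 against Rapa-1 males). With the replicate block the counts were 3 in Rapa females, 0 in all Rapa males, 0 in Rapa-1 males, 3 in Rapa-2 males (C8b passed as well), 2 in Rapa-2 against Rapa-1 males, 6 in control females and 1 for the interaction.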
